A study of Mus musculus with 3 samples.

Results

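Messenger RNAs of 4 peptide hormone precursors, *Sst*, *Penk*, *Nts* and *Apela*, were followed through the cell types of the embryonic mouse kidney. The genes were taken by symbol from the 32285 genes of the deposited single-cell count matrices, 4 of 4 symbols were found, and barcodes were used where they had between 1000 and 6000 genes with a count and no more than 10% of UMIs (unique molecular identifiers, counted transcript molecules) from mitochondrial genes. The genes were chosen by their levels in these same libraries, *Sst* as the leading gene of a nephron cluster found mostly in one of them. Their levels and ratios are therefore a description of these libraries, and no test was made on them.

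The kidneys came from E15.5 embryos (embryonic day) and were profiled with droplet 3′ single-cell RNA sequencing in 3 libraries, 1 per group. Enl-WT embryos were *Enl* +/+ *Wt1* GFPCre/+, Enl-T1 embryos were *Enl* flox-T1/+ *Wt1* GFPCre/+, and the third group, labelled Enl-T1 TDI-11055 and called treated Enl-T1 here, had the Enl-T1 genotype and mothers given TDI-11055 orally each day (100 mg/kg, E10.5 to E14.5). *Mllt1* encodes ENL, a protein that reads acylated histones, T1 is a small in-frame insertion found in Wilms tumour, and TDI-11055 blocks the acyl-binding pocket of ENL. Every embryo, controls included, carried the *Wt1* GFPCre allele, which expresses Cre from the *Wt1* promoter and inactivates 1 copy of that gene. Enl-T1 is heterozygous and is made only in cells with a history of *Wt1* expression, and the insertion cannot be seen in gene counts, so the labels could not be checked in this way. The study describes Enl-T1 expression as restricted to the nephron and stroma, which leaves out the ureteric epithelium and endothelial cells. Embryos were pooled in each library without a map from cells to embryos. The study names fewer Enl-WT than Enl-T1 embryos and gives no number for the treated library. The samples of Enl-WT and of Enl-T1 alone were titled as untreated, and no library of treated Enl-WT embryos was analysed here.

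The libraries held 37221435 to 76619303 UMIs. Kept were 5233 Enl-WT, 4144 Enl-T1 and 2754 treated Enl-T1 cells, the order in which values are given throughout. These were 72.8%, 63.0% and 42.7% of the barcodes. Depth differed, with a median of 5090, 9391 and 16932 UMIs per kept cell. *Xist* without any Y-linked UMI was seen in 26.5%, 73.3% and 35.2% of kept cells, so the libraries also differed in the sex of their embryos, and 5 to 8 kept barcodes were shared between any pair of libraries. Stroma made up 16.6%, 33.7% and 9.80% of the kept cells. With 1 library per group no p-value was computed, and every bracketed range is an exact 95% interval for counting error only, which covers no difference between embryos or preparations.

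Peptide hormones are cut out of longer precursors in the secretory pathway, at pairs of basic residues, and act on receptors of nearby or distant cells. *Sst* encodes somatostatin, an inhibitory hormone of neurons and endocrine cells. *Penk* encodes proenkephalin, the source of the opioid enkephalins. *Nts* encodes neurotensin, known from gut and brain. *Apela* encodes ELABELA, an early embryonic ligand of the apelin receptor, which is also made in the kidney.

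The parts of each message that encode the active peptide are shown because they tell apart which hormone the counted molecules can make. They were read from GENCODE M21 transcripts on GRCm38, 5′ to 3′ on the coding strand, with the peptide's codons in capitals and flanking codons in lower case. *Sst* encodes 116 residues and ends in the 14 codons of somatostatin-14 (codons 103 to 116). *Penk* encodes 268 residues with 7 enkephalin sequences, of which 6 read as Met-enkephalin and 1 as Leu-enkephalin (codons 231 to 235). They were counted by sequence alone, and flanking pairs of basic codons were not required. The 13 codons of neurotensin are codons 150 to 162 of 169, and the whole 54-codon reading frame of *Apela* is given with its last 32 codons in capitals.
Sst: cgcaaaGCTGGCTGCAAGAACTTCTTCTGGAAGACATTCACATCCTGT
Penk, Met-enkephalin: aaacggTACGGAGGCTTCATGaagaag
Penk, Leu-enkephalin: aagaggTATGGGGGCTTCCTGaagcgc
Nts: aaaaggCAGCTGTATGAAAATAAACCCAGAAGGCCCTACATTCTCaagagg
Apela: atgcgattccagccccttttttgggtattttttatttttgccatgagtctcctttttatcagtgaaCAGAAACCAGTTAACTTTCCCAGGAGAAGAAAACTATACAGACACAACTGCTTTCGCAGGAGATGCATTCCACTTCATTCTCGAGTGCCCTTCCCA

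All 4 genes lie on the minus strand of GRCm38. *Sst* (ENSMUSG00000004366) is at chr16:23889573-23890958, *Penk* (ENSMUSG00000045573) at chr4:4133531-4138819, *Nts* (ENSMUSG00000019890) at chr10:102481756-102490486 and *Apela* (ENSMUSG00000079042) at chr8:65028417-65037336. *Penk* overlaps the antisense transcript A830012C17Rik and *Apela* overlaps Gm45886 on its own strand, so reads of *Apela* and Gm45886 may not be fully told apart. In RefSeq's promoter windows (GRCm38.p6, around each gene's start), the cAMP response element TGACGTCA, a palindrome and so the same on both strands, was found in that of *Sst*, 40 bases before the start. The surrounding letters, with the element in capitals, are given because this element is the best known control sequence of the gene.
Sst promoter: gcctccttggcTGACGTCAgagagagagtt
The element stood in 588 of 32851 promoter windows (1.79%), and its letters were not in the windows of *Nts* and *Apela*. The promoter of *Penk* was not analysed here. Seen in a sequence it says nothing of what bound there in these cells.

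Levels are given as CPM, the UMIs of a gene summed over the cells of a lineage in a library and scaled to 1000000 UMIs of all genes in those cells. The members were left out of the genes that defined the clusters. In each library *Penk* and *Nts* were mostly in the stroma and *Apela* in the ureteric epithelium (the ureteric bud and its derivatives), while *Sst* was divided between nephron and stroma. The leading lineage of a gene is the one with its highest mean CPM over the 3 libraries. All 4 genes were highest in Enl-T1 in that lineage. For *Sst* it is the nephron only because of the Enl-T1 library. In Enl-WT and treated Enl-T1 the stroma was higher, at 3.42 against 0.290 CPM and 2.59 against 0.684 CPM.

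**Figure D1:**
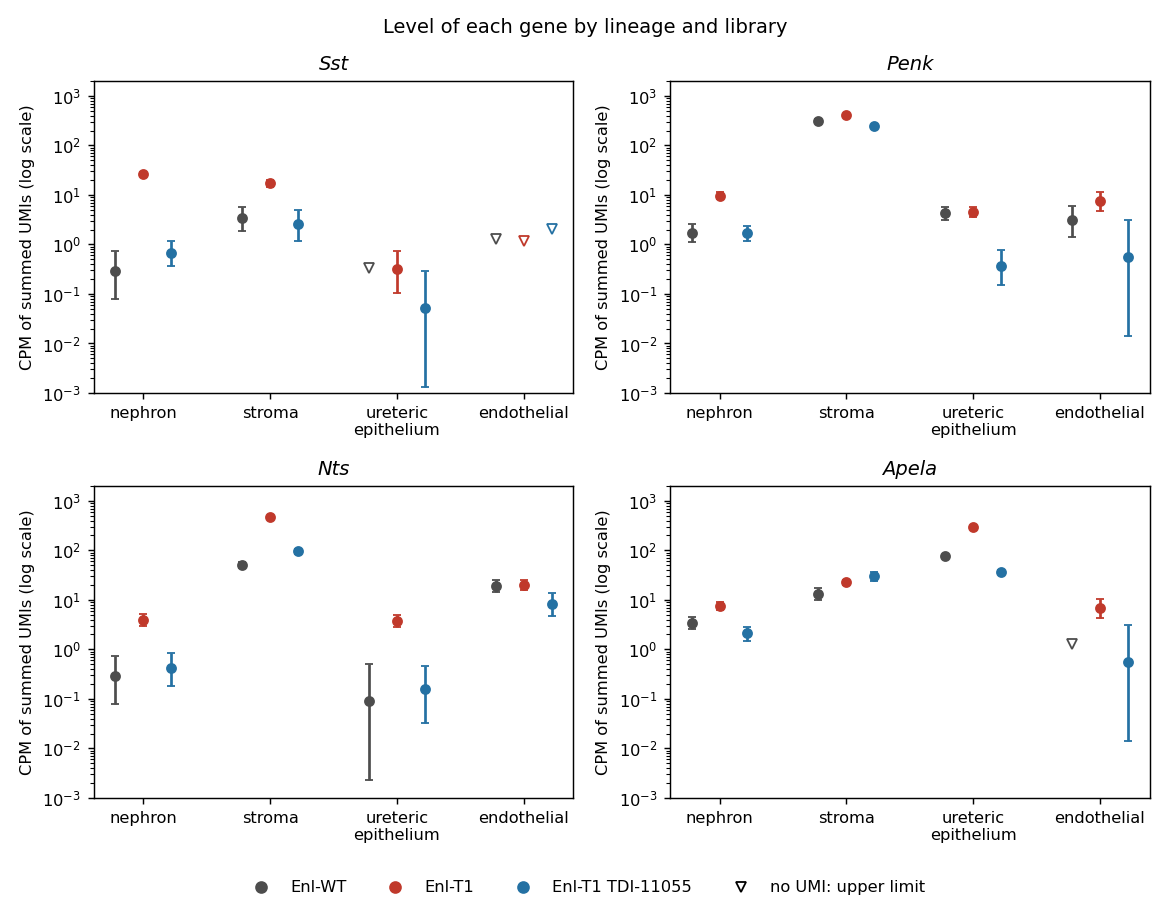
Level of each gene (CPM of summed UMIs, log scale) in 4 lineages of each library, with exact 95% Poisson intervals as bars and open triangles at the upper limit where no UMI was counted. The red Enl-T1 point is the highest of its trio for *Sst* in the nephron (26.7 CPM), *Penk* and *Nts* in the stroma (405 and 470 CPM) and *Apela* in the ureteric epithelium (298 CPM), but not for *Apela* in the stroma.

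Among kept cells, *Sst* was nearly absent from the Enl-WT and treated Enl-T1 libraries and present in a small number of Enl-T1 cells. In the nephron its level was 0.290 CPM (0.0789 to 0.741, 4 UMIs) in Enl-WT, 26.7 CPM (24.04 to 29.5, 382 UMIs) in Enl-T1 and 0.684 CPM (0.364 to 1.17, 13 UMIs) in treated Enl-T1. The Enl-T1 level stood apart from the other two, whose intervals overlapped. The ratio of Enl-T1 to Enl-WT was 92.0 (35.7 to 340), on a denominator of 4 UMIs, and that of treated Enl-T1 to Enl-T1 was 0.0257 (0.0136 to 0.0444). On the log2 scale the latter was -5.28, and -6.44 as a mean over cells, -4.37 with lineages by marker level and -4.49 with the cluster mix of Enl-WT. Both ratios use the same Enl-T1 library, here and for the other genes.

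In the stroma *Sst* reached 3.42 CPM (1.87 to 5.75, 14 UMIs), 17.1 CPM (14.7 to 19.7, 189 UMIs) and 2.59 CPM (1.18 to 4.91, 9 UMIs) in the same order of libraries. Enl-T1 was again the high library, at 4.99 times Enl-WT (2.90 to 9.30), and the treated library was at 0.151 times Enl-T1 (0.0682 to 0.294). Nephron and stroma therefore did not differ in which library was high, and in the Enl-WT library it was the stroma that held 14 of the 18 UMIs, 8 of them in 1 cell. The ureteric epithelium had 0, 5 and 1 *Sst* UMIs, and no endothelial cell of 394, 256 and 116 had any, with upper limits of 1.28, 1.16 and 2.06 CPM.

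Few cells carried the message. In Enl-T1, 89 kept cells had a *Sst* UMI, 57 had at least 2 and 16 had at least 10, with 61 UMIs in the highest cell and 56 in the next. In the nephron 37 cells of 1301 had one and 5 cells held 51.1% of the *Sst* UMIs. By contrast, 7 Enl-WT cells and 12 treated Enl-T1 cells had a *Sst* UMI, with at most 8 and 6 in a cell. After each cell was thinned to 2000 UMIs, so that depth was equal, 0.0918% of Enl-WT nephron cells (0.0111 to 0.331), 1.86% of Enl-T1 nephron cells (1.19 to 2.75) and 0.150% of treated Enl-T1 nephron cells (0.0182 to 0.541) kept a *Sst* UMI. Enl-T1 minus Enl-WT was 1.76 percentage points (1.06 to 2.66), and treated minus untreated Enl-T1 was -1.71 points (-2.61 to -0.935). Without thinning the shares were 0.0903%, 2.84% and 0.447%. Endothelial cells, taken as a measure of free RNA, were at 0 of 384, 256 and 116 thinned cells, with upper limits of 0.956%, 1.43% and 3.13%.

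**Figure D2:**
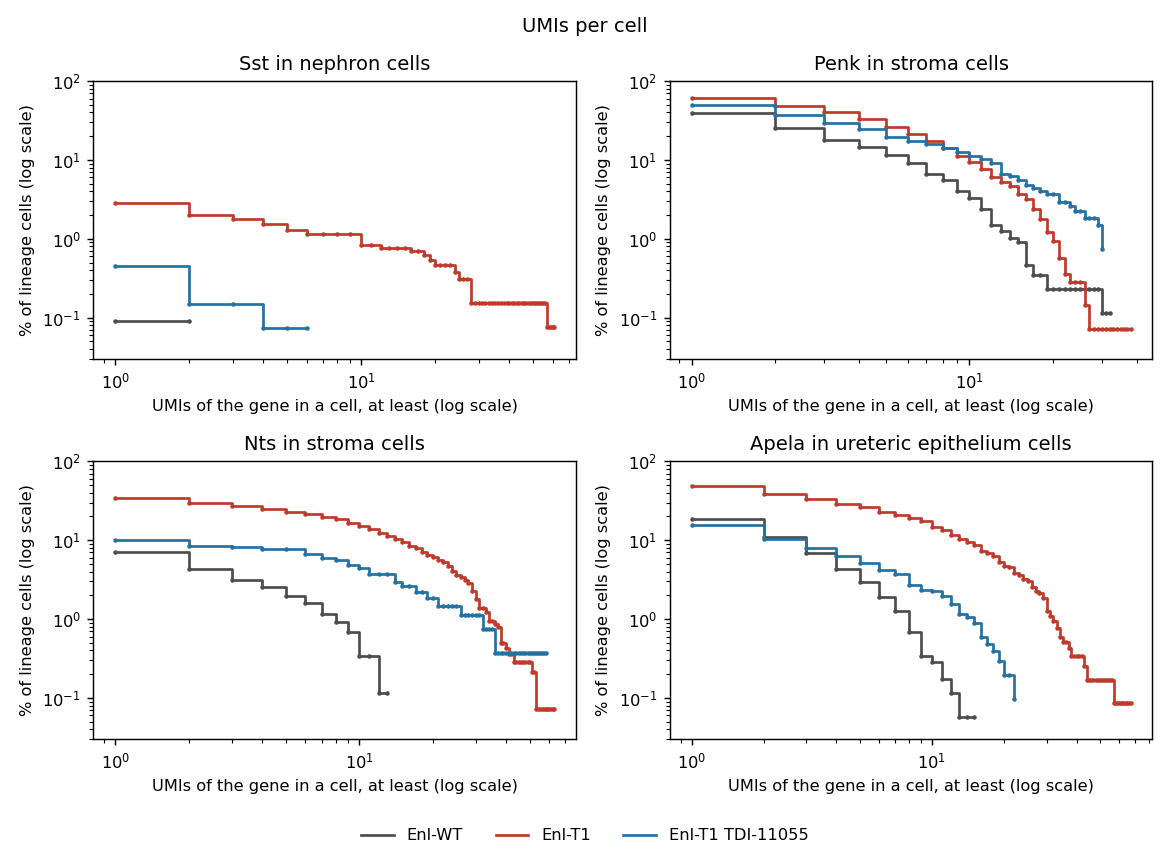
Share of the cells of the leading lineage (percent, log scale) with at least the number of UMIs on the horizontal axis (log scale), one line per library and one panel per gene, without thinning. For *Sst* only the Enl-T1 line runs past 6 UMIs, to 61, whereas for *Penk* all 3 lines reach 30 to 38 UMIs.

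Within the nephron, *Sst* in Enl-T1 was concentrated in 2 clusters. Nephron cluster 10, which was led by *Sst*, *Akap12* and *Meg3* and was left unnamed because its leading genes held no marker of a nephron cell type but *Col1a1* of the stroma, held 303 of the 382 UMIs at 211.7 CPM (188.6 to 237.0). Its other leading genes were *Hhip*, a binding antagonist of Hedgehog ligands, the heparan sulfatase *Sulf1*, *Slc26a7*, *Smoc2*, *Abi3bp* and *Syt4*. Only 21 of its 166 Enl-T1 cells (12.7%) had a *Sst* UMI. The 36 Enl-WT and 11 treated Enl-T1 cells of the cluster had none, with upper limits of 16.2 and 21.1 CPM, and against a floor of 3 UMIs per library the Enl-T1 level was at least 16.1-fold higher than Enl-WT and the treated Enl-T1 level at least 12.3-fold lower than Enl-T1. With 36 and 11 cells, a share of positive cells as in Enl-T1 would give few of them.

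Nephron cluster 5, which was named distal tubule and loop of Henle-like for *Slc12a1*, the sodium-potassium-chloride cotransporter of the thick ascending limb, was the other one. There *Sst* was at 1.15 CPM (0.140 to 4.16) in 287 Enl-WT cells, 117.0 CPM (89.5 to 150.2) in 54 Enl-T1 cells and 4.66 CPM (1.87 to 9.60) in 88 treated Enl-T1 cells. The 61 Enl-T1 UMIs came from 7 cells, with 24 in the highest. Podocyte-like, proximal tubule-like and intermediate-like clusters had no *Sst* UMI in Enl-T1.

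In the stroma the Enl-T1 UMIs of *Sst* were most numerous in ureteric stroma-like cluster 1 (led by *Syt1*, *Car3* and *Maob*; 45.0 CPM, 35.8 to 55.9, 82 UMIs in 14 cells) and Foxd1 stroma-like cluster 8 (led by *Npy*, *Egfl6* and *Grp*; 52.9 CPM, 37.8 to 72.1, 40 UMIs in 8 cells). Clusters 0, 2 and 5 had 22, 18 and 10 UMIs, and the rest had fewer. The 48 and 35 Enl-WT cells of clusters 1 and 8 had none. In cluster 1 the treated Enl-T1 level was 40.9 CPM (11.1 to 105), which overlapped that of Enl-T1 and rested on 4 UMIs in 1 of 10 cells. Stroma cluster 6 went the other way, at 53.5 CPM in Enl-WT (26.7 to 95.8, 11 UMIs in 2 cells) and 6.48 CPM in Enl-T1 (2.61 to 13.4, 7 UMIs).

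The Enl-T1 nephron cells with at least 2 *Sst* UMIs, 26 in number, were compared with the 1264 without any. These cells came from more than 1 cluster, nephron clusters 10 and 5 among them, so their genes are not the profile of 1 cell type. *Slc12a1* and *Tfap2b* are among the leading genes of cluster 5, and *Meg3* and *Sulf1* among those of cluster 10. The genes of highest ratio (10 CPM were added on each side) were *Slc12a1* (9.89), *Nfib* (8.70), a transcription factor of the nuclear factor I family, the stress-induced factor *Atf3* (7.85), the imprinted noncoding RNA *Meg3* (7.81) and *Sulf1* (7.72). Among markers, *Sox9* had a ratio of 7.46 and the distal nephron factor *Tfap2b* one of 4.91, while the progenitor genes *Six2* and *Cited1* had ratios of 0.350 and 0.315. Stroma genes were also higher, with 5.88 for *Col1a1* and 4.39 for *Col1a2*, and so were haemoglobins, with 7.52 for *Hba-a1* and 7.37 for *Hbb-bs*. These 26 cells had a median depth of 8306 UMIs against 10309. In the stroma, 30 cells with at least 2 *Sst* UMIs were led by *Gfra1*, the GDNF co-receptor (4.02), *Arpp21*, *Pax2* (3.41), *Syt4* (3.39) and *Efcab6*.

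Markers of other cells were counted in the 57 Enl-T1 cells with at least 2 *Sst* UMIs. Of 6 chromaffin markers (*Th*, *Dbh*, *Phox2a*, *Chga*, *Chgb* and *Ddc*) and 5 adrenal cortex markers (*Star*, *Cyp11a1*, *Nr5a1*, *Cyp17a1* and *Hsd3b1*) none had a UMI. Of 7 neuron markers 3 had 1 UMI each, and *Elavl3*, *Elavl4* and *Tubb3* were among those at 0. Among glia and neural crest markers, *Erbb3* was detected, and *Sox10* and *Foxd3* were at 0. Erythroid markers, 6 of 7 detected, summed to 6177 CPM in these cells against 1436 CPM in all kept Enl-T1 cells, with *Hemgn* at 0, and their part in the *Sst* level was not tested. Over all kept cells the erythroid sum was 1937, 1436 and 2475 CPM, lowest in Enl-T1.

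*Penk* was a gene of the stroma in every library, which held 94.1%, 95.0% and 95.5% of its UMIs. Its stromal level was 316.5 CPM (299.5 to 334.2, 1294 UMIs) in Enl-WT, 405.3 CPM (393.6 to 417.4, 4486 UMIs) in Enl-T1 and 241.9 CPM (225.8 to 258.8, 842 UMIs) in treated Enl-T1. The intervals did not overlap, but the steps were small, with ratios of 1.28 (1.20 to 1.36) over Enl-WT for Enl-T1 and 0.597 (0.554 to 0.643) for treated over untreated Enl-T1. When each stromal cluster was given its Enl-WT weight, the log2 ratio of Enl-T1 to Enl-WT went from 0.36 to -0.02, while that of treated Enl-T1 to Enl-T1 went from -0.74 to -0.50.

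In medullary stroma-like cluster 2 (led by *Lrriq1*, *Sostdc1* and *Alx1*) *Penk* was at 1311 CPM in Enl-WT (1181 to 1450), 1104 CPM in Enl-T1 (1047 to 1164) and 845 CPM in treated Enl-T1 (701 to 1010 CPM). In stroma cluster 6, unnamed and led by *Gap43*, *Nrxn3* and the Wnt inhibitor *Apcdd1*, with *Crym* and *Wnt4* among its leading genes, which stood on the nephron marker list although *Wnt4* is also known from medullary stroma, it was at 1329 CPM (1176 to 1496), 687 CPM (638 to 738) and 606 CPM (506 to 721). Enl-T1 was below Enl-WT in both of these *Penk*-rich clusters, at 0.843 (0.751 to 0.947) and 0.517 (0.449 to 0.596) times its level. Cluster 2 had 82, 206 and 13 cells and cluster 6 had 55, 147 and 15, of 871, 1395 and 270 stromal cells. Clusters of lower level went the other way, with a ratio of 1.78 (1.49 to 2.13) in the cycling cluster 0 and 1.98 (1.23 to 3.37) in cluster 4, which was led by *Clca3a1* and *Lox*. Renin and mesangial-like cluster 7 had little *Penk*, at 1.95, 24.4 and 39.6 CPM from 1, 11 and 12 UMIs.

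Many cells shared the message. A *Penk* UMI was found in 342, 843 and 136 stromal cells, and the highest cells had 32, 38 and 30 UMIs. At equal depth the shares were 29.0% (25.9 to 32.2), 40.6% (38.0 to 43.2) and 26.0% (20.9 to 31.7), with differences of 11.6 points (7.52 to 15.6) for Enl-T1 against Enl-WT and -14.6 points (-20.3 to -8.33) for treated Enl-T1 against Enl-T1. Without thinning they were 39.3%, 60.4% and 50.4%. In the ureteric epithelium, where *Penk* was low, the thinned shares were 0.525%, 0.941% and 0.0989%.

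Outside the stroma *Penk* was low. The nephron had 1.74, 9.70 and 1.68 CPM, a ratio of 5.58 (3.60 to 9.0) for Enl-T1 over Enl-WT. Endothelial cells had 3.12, 7.55 and 0.559 CPM. In Enl-T1 the thinned shares were 1.55% in the nephron and 1.56% in endothelial cells, and the part of free RNA in the nephron level was not tested. Of the 139 Enl-T1 nephron UMIs, 63 were in nephron cluster 10, the *Sst*-led cluster with *Col1a1*, at 44.0 CPM (33.8 to 56.3). In the ureteric epithelium, where 4.29, 4.58 and 0.369 CPM were counted, Enl-T1 and Enl-WT did not differ beyond counting error (ratio 1.07, 0.731 to 1.58).

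*Nts* showed a larger difference in the same tissue. Its stromal level was 51.6 CPM (44.9 to 59.1, 211 UMIs) in Enl-WT, 470.1 CPM (457.4 to 483.1, 5203 UMIs) in Enl-T1 and 95.1 CPM (85.1 to 105.9, 331 UMIs) in treated Enl-T1. Enl-T1 was 9.11 times Enl-WT (7.94 to 11), and treated Enl-T1 was 0.202 times Enl-T1 (0.181 to 0.226) and still 1.84 times Enl-WT (1.55 to 2.20). The stroma held 77.6%, 96.7% and 92.7% of all *Nts* UMIs.

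Unlike *Penk*, *Nts* was above its Enl-WT level within both clusters where it was highest. In stroma cluster 6 it was at 545 CPM in Enl-WT (449 to 656), 1920 CPM in Enl-T1 (1839 to 2005) and 933 CPM in treated Enl-T1 (807 to 1073). There the share of cells with a *Nts* UMI, without thinning, was 58.2%, 91.8% and 100.0% of 55, 147 and 15 cells. In medullary stroma-like cluster 2 the levels were 210 CPM (160 to 271), 1172 CPM (1112 to 1234) and 901 CPM (752 to 1072). Both clusters stood higher in treated Enl-T1 than in Enl-WT, on 15 and 13 treated cells.

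Away from these 2 clusters *Nts* appeared in several Enl-T1 clusters where the other libraries had almost none. Stroma cluster 10, unnamed and led by *Calb1*, *Epcam* and *Wfdc2*, did not go this way. It had 26 *Nts* UMIs in 22 Enl-WT cells and 11 in 6 Enl-T1 cells. Ureteric stroma-like cluster 1 had 1 UMI in 48 Enl-WT cells, 849 UMIs in 243 Enl-T1 cells (466 CPM, 435 to 498) and 0 in 10 treated Enl-T1 cells, which allows up to 37.7 CPM. Cycling cluster 0 had 9, 387 and 1 UMIs, or 11.4, 182.5 and 0.939 CPM, with 146, 190 and 73 cells. Renin and mesangial-like cluster 7 had 2, 61 and 0 UMIs, and 32 of the 61 were in 1 cell. Weighting each cluster as in Enl-WT gave log2 ratios of 2.57 over Enl-WT for Enl-T1 and -1.47 for treated over untreated Enl-T1, against 3.19 and -2.31 without weighting.

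A *Nts* UMI was present in 61, 472 and 27 stromal cells, and at least 10 UMIs in 3, 212 and 12. At equal depth the shares were 5.54% (4.10 to 7.29), 27.2% (24.8 to 29.6) and 7.81% (4.90 to 11.7), against 0.0583%, 0.513% and 0% in the ureteric epithelium. The differences were 21.6 points (18.7 to 24.4) and -19.4 points (-23.1 to -14.8). Without thinning the shares were 7.003%, 33.8% and 10.0%. In treated Enl-T1, 5 cells held 51.1% of the stromal UMIs and the highest one had 58. Without that cell the log2 ratio to Enl-T1 was -2.56.

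Endothelial cells were the other source of *Nts*, and there Enl-T1 and Enl-WT stood level. The levels were 19.4 CPM (56 UMIs), 20.1 CPM (64 UMIs) and 8.39 CPM (15 UMIs), a ratio of 1.04 (0.714 to 1.51) over Enl-WT for Enl-T1 and 0.417 (0.221 to 0.740) for treated over untreated Enl-T1. The highest level was in endothelial cluster 16, which was left unnamed but had the lymphatic genes *Prox1* and *Lyve1* among its leading genes, with 93.9 CPM (45.0 to 173) in 17 Enl-WT cells and 89.5 CPM (54.7 to 138) in 23 Enl-T1 cells. The 3 treated Enl-T1 cells there had none, which allows up to 61.7 CPM.

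*Apela* was a gene of the ureteric epithelium, which held 89.1%, 92.3% and 83.1% of its UMIs. The level was 75.4 CPM (70.4 to 80.7, 845 UMIs) in Enl-WT, 298.3 CPM (289.8 to 307.1, 4622 UMIs) in Enl-T1 and 37.4 CPM (34.7 to 40.3, 711 UMIs) in treated Enl-T1. Enl-T1 was 3.96 times Enl-WT (3.67 to 4.26), and treated Enl-T1 was 0.126 times Enl-T1 (0.116 to 0.136). With a stricter filter (1500 to 6000 genes, 5% mitochondrial) the log2 ratio to Enl-WT was 3.72, against 1.98. The treated library was the lowest of the 3, at 0.496 times Enl-WT (0.448 to 0.549). The ureteric epithelium lies outside the nephron and stroma, to which the study restricts Enl-T1 expression.

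Among clusters of the ureteric epithelium *Apela* differed widely. Ureteric tip-like cluster 9 (*Wnt11*, *Etv5*) had 2, 3 and 0 UMIs. Collecting duct-like cluster 3 (*Aqp2*, the vasopressin-regulated water channel) had 46.2, 120.8 and 20.8 CPM, and unnamed cluster 2 (*Tmem213*, *Spink8*, *Fxyd4*) had 264, 514 and 188 CPM. The top was urothelium-like cluster 7 (*Gsdmc2*, *Spp1*, *Gsdmc3*, *Upk3a*), with 591 CPM in Enl-WT (524 to 663), 1175 CPM in Enl-T1 (1129 to 1223) and 545 CPM in treated Enl-T1 (490 to 605), where 89.8%, 100.0% and 94.7% of the cells had a UMI. Urothelium-like cluster 10, led by the uroplakin genes *Upk1b* and *Upk1a*, was lower, at 146.6, 272.3 and 129.9 CPM.

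Enl-T1 was the highest library in each of the clusters just named other than the tip-like one. Its ratio to Enl-WT was 1.99 (1.76 to 2.26) in cluster 7, 1.95 (1.73 to 2.21) in cluster 2, 1.86 (1.34 to 2.64) in cluster 10 and 2.61 (2.00 to 3.46) in cluster 3. It was larger in cycling clusters of low level, at 6.06 (4.09 to 9.25) in cluster 8 and 19.5 (6.33 to 97.4) in cluster 0, where 3 Enl-WT and 55 Enl-T1 UMIs were counted. Treated over untreated Enl-T1 was 0.464 (0.414 to 0.519) in cluster 7 and 0.172 (0.121 to 0.239) in cluster 3. Urothelium-like cluster 7 had 88, 150 and 38 cells. With the Enl-WT mix of clusters the log2 ratios of the lineage were 1.20 and -1.64, against 1.98 and -3.00 without it.

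**Figure D3:**
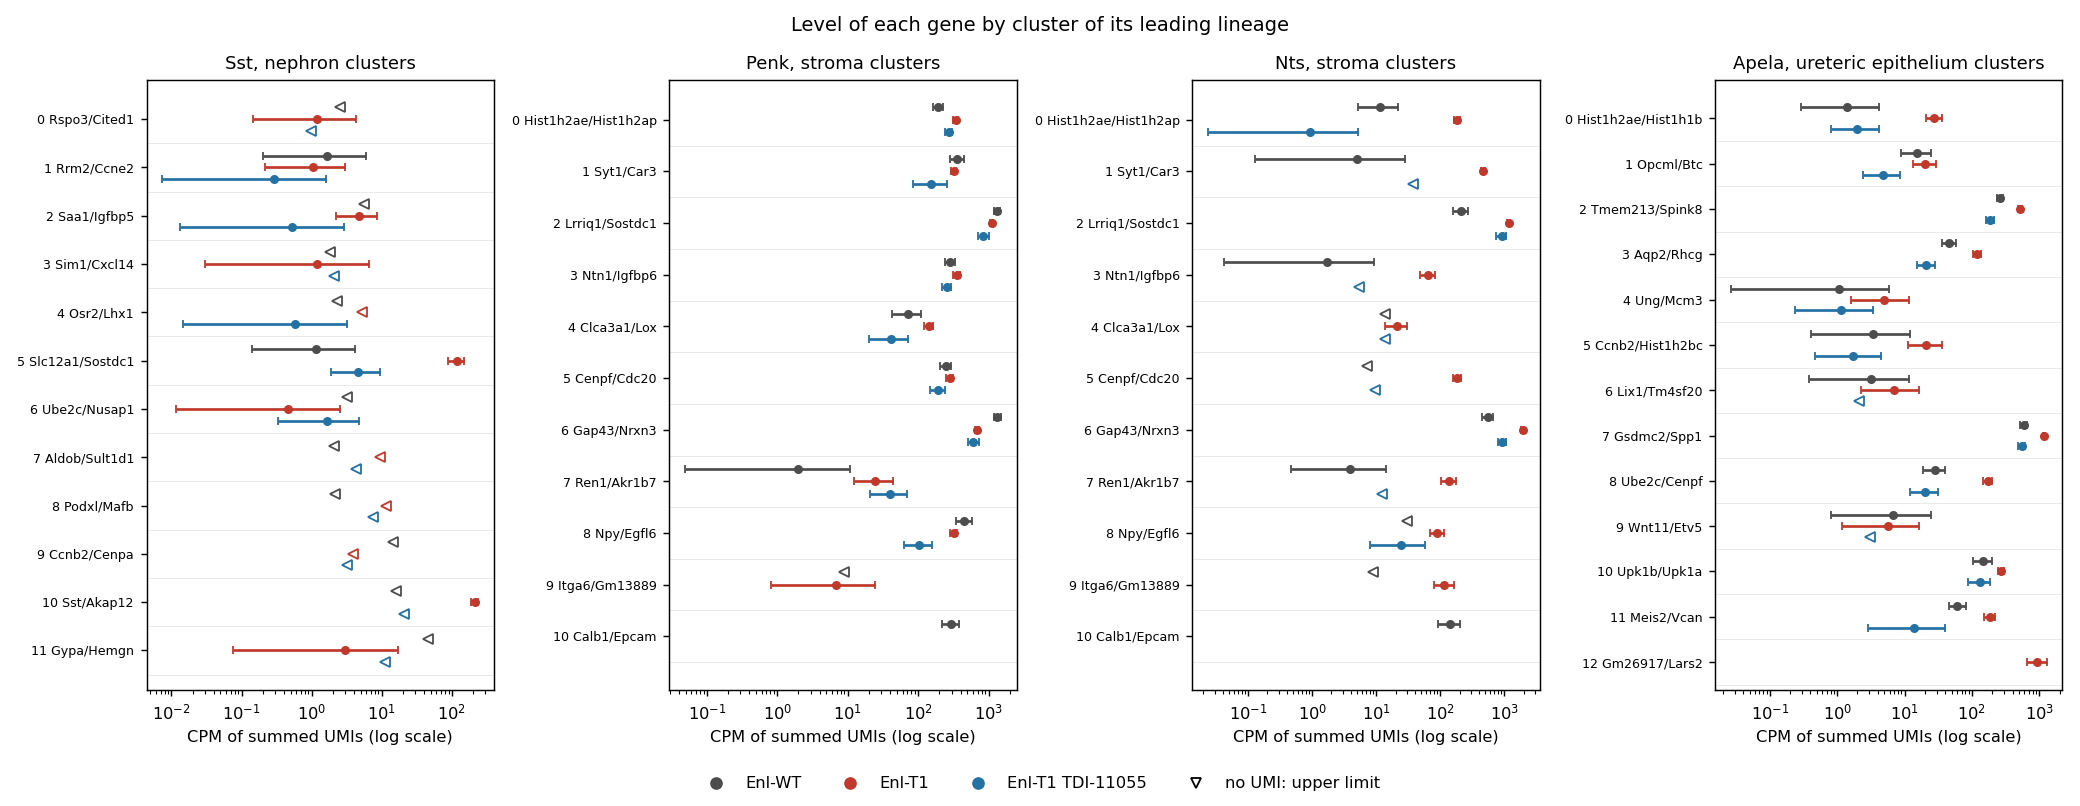
Level (CPM of summed UMIs, log scale) of each gene in the clusters of its leading lineage, labelled with the cluster number and its first 2 leading genes, with exact 95% Poisson intervals and open triangles at the upper limit where no UMI was counted; clusters with under 10 cells in a library are left out for that library. The red Enl-T1 points of *Sst* stand out in nephron clusters 5 and 10, *Penk* lies between 845 and 1311 CPM in the 3 libraries of stroma cluster 2, and *Nts* and *Apela* are shifted to the right in Enl-T1 in most clusters.

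An *Apela* UMI was found in 320, 569 and 161 cells of the ureteric epithelium, with at least 10 UMIs in 5, 174 and 23. The thinned shares were 9.5% (8.15 to 10.99), 29.3% (26.7 to 31.96) and 6.13% (4.73 to 7.79), which gave differences of 19.8 points (16.8 to 22.8) and -23.1 points (-26.2 to -20.04). Without thinning they were 18.4%, 48.5% and 15.8%. Endothelial cells, where *Apela* was low, had thinned shares of 0% (up to 0.956%), 2.34% and 0.862%.

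In the stroma *Apela* did not follow the same order. It was at 13.5 CPM (10.1 to 17.5), 22.7 CPM (19.96 to 25.7) and 29.9 CPM (24.4 to 36.2), so that the treated library was the highest, at 1.32 times Enl-T1 (1.04 to 1.66). In the nephron the order was that of the ureteric epithelium, with 3.48, 7.67 and 2.11 CPM and ratios of 2.21 (1.56 to 3.17) and 0.274 (0.186 to 0.397). The Enl-T1 nephron level was close to the 6.92 CPM of endothelial cells in that library, as were the thinned shares of 2.47% and 2.34%. Endothelial cells of Enl-WT and treated Enl-T1 had 0 and 0.559 CPM. The part of free RNA in the nephron levels was not tested. Podocyte-like cluster 8 had 14.8 CPM (25 UMIs), 3.16 CPM (1 UMI) and 43.1 CPM (21 UMIs) in 227, 43 and 31 cells. Endothelial *Apela* was at 0, 22 and 1 UMIs, with 9 of the 22 in 1 cell.

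*Penk* and *Nts* shared cells in the stroma of every library. After thinning, 30 Enl-WT stromal cells had both, where the product of the shares gives 13.6, and the counts were 238 against 153.4 in Enl-T1 and 10 against 5.47 in treated Enl-T1. Of the Enl-T1 stromal cells with *Penk*, 42.1% (38.0 to 46.3) had *Nts*, against 16.9% (14.4 to 19.7) of the rest. In the Enl-T1 stroma *Sst* shared cells with *Penk* 8 times, where 8.52 would be given by the shares, and with *Nts* 4 times, where 5.70 would be. In the Enl-T1 nephron 2 cells had *Sst* and *Penk* together, where 0.371 would be, too few to read.

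Cells with at least 2 UMIs of a gene were compared with cells without any in the Enl-T1 leading lineage. *Penk* cells (677 against 552) were led by *Sostdc1*, a BMP and Wnt antagonist (3.39), *Nts* (3.35), *Dach2* (3.11), *Neto2* (2.96) and *Col15a1* (2.82). *Nts* cells (414 against 923) were led by *Gap43* (9.71), *Wnt4* (7.91), *Lef1*, a nuclear effector of Wnt signalling (7.64), *Nrxn3* (7.26) and *Apcdd1* (7.03). *Apela* cells (457 against 605) were led by *Sprr2f* (19.4), *Gsdmc2* (15.9), *Gsdmc3* (13.8), *Spp1* (11.2) and *Tff2* (7.39), of which *Sprr2f* belongs to the small proline-rich proteins of stratified epithelium. No gene stood in more than 1 of these lists.

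Across the 81 pairs of cluster and library with enough cells, the log2 levels of 12878 genes were correlated with each member, as a description with no p, since the points share libraries, depth and cells. Nearest to *Sst* were *Sorcs3* (Pearson r = 0.77), *Lrfn5* (0.71), *Nrxn3* (0.70), *Ntng1* (0.68) and *Syt4* (0.67). Nearest to *Penk* were its antisense neighbour A830012C17Rik (0.91), *Fxyd7* (0.91), *Col6a2* (0.91) and *Gria4* (0.91). *Nts* was most like *Iigp1* (0.83), *Tmeff2* (0.80), A830012C17Rik (0.79), *Fxyd7* (0.79) and *Alx1* (0.78), and *Apela* was most like *Sprr1a* (0.86), *Ctse* (0.83), *Foxq1* (0.82), *Sprr2f* (0.82) and *Gsdmc3* (0.82). Between members the values were 0.77 for *Penk* and *Nts*, 0.64 for *Sst* and *Nts*, 0.60 for *Sst* and *Penk*, and 0.10 to 0.17 for *Apela* with the rest.

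The members were set against all genes with a mean of at least 5 CPM over the 2 libraries compared. In the nephron 3 of the 4 passed that floor for Enl-T1 over Enl-WT (*Sst*, *Penk* and *Apela*), each only through its Enl-T1 level, and all 3 were at least 2-fold higher, as were 2.83% of all 10554 genes. For treated over untreated Enl-T1, *Sst* and *Penk* passed the floor and were at least 2-fold lower in the nephron, as were 1.88% of 9976 genes. In the stroma all 4 passed the floor, *Sst* only through Enl-T1. *Sst* and *Nts* were at least 2-fold higher in Enl-T1, as were 2.81% of 10554 genes, and the same 2 were at least 2-fold lower in treated Enl-T1, as were 4.28% of 10211 genes. In the ureteric epithelium only *Apela* passed, and it was at least 2-fold higher in Enl-T1 (2.45% of 10534 genes) and at least 2-fold lower in treated Enl-T1 (3.93% of 10290 genes). Because these contrasts chose the members, nothing is read from the counts or from the ranks that follow.

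By rank, *Sst* was number 3 from the top of 10554 ratios of Enl-T1 to Enl-WT in the nephron. It had the lowest of 9976 ratios of treated to untreated Enl-T1 there. *Sst* entered both sets only through its Enl-T1 level, which both ratios share. Since the members were chosen by these levels, their ranks are a description only. *Nts* ranked 19 from the top and 29 from the bottom in the stroma, *Apela* 45 from the top and 33 from the bottom in the ureteric epithelium, and *Penk* 1230 from the top and 755 from the bottom in the stroma. The median log2 ratio of all genes was -0.41, -0.31 and -0.30 for Enl-T1 over Enl-WT in the nephron, stroma and ureteric epithelium, and 0.00, 0.03 and 0.02 for treated over untreated Enl-T1. All 4 members are short, with 721 to 1634 exonic bases, and belong to the shortest 10% of genes. Those genes had median log2 ratios of 0.11, 0.17 and 0.23 for Enl-T1 over Enl-WT, and 11.7%, 10.6% and 12.3% of them were at least 2-fold higher. The share of the members' ratios that goes with gene length was not tested.

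**Figure D4:**
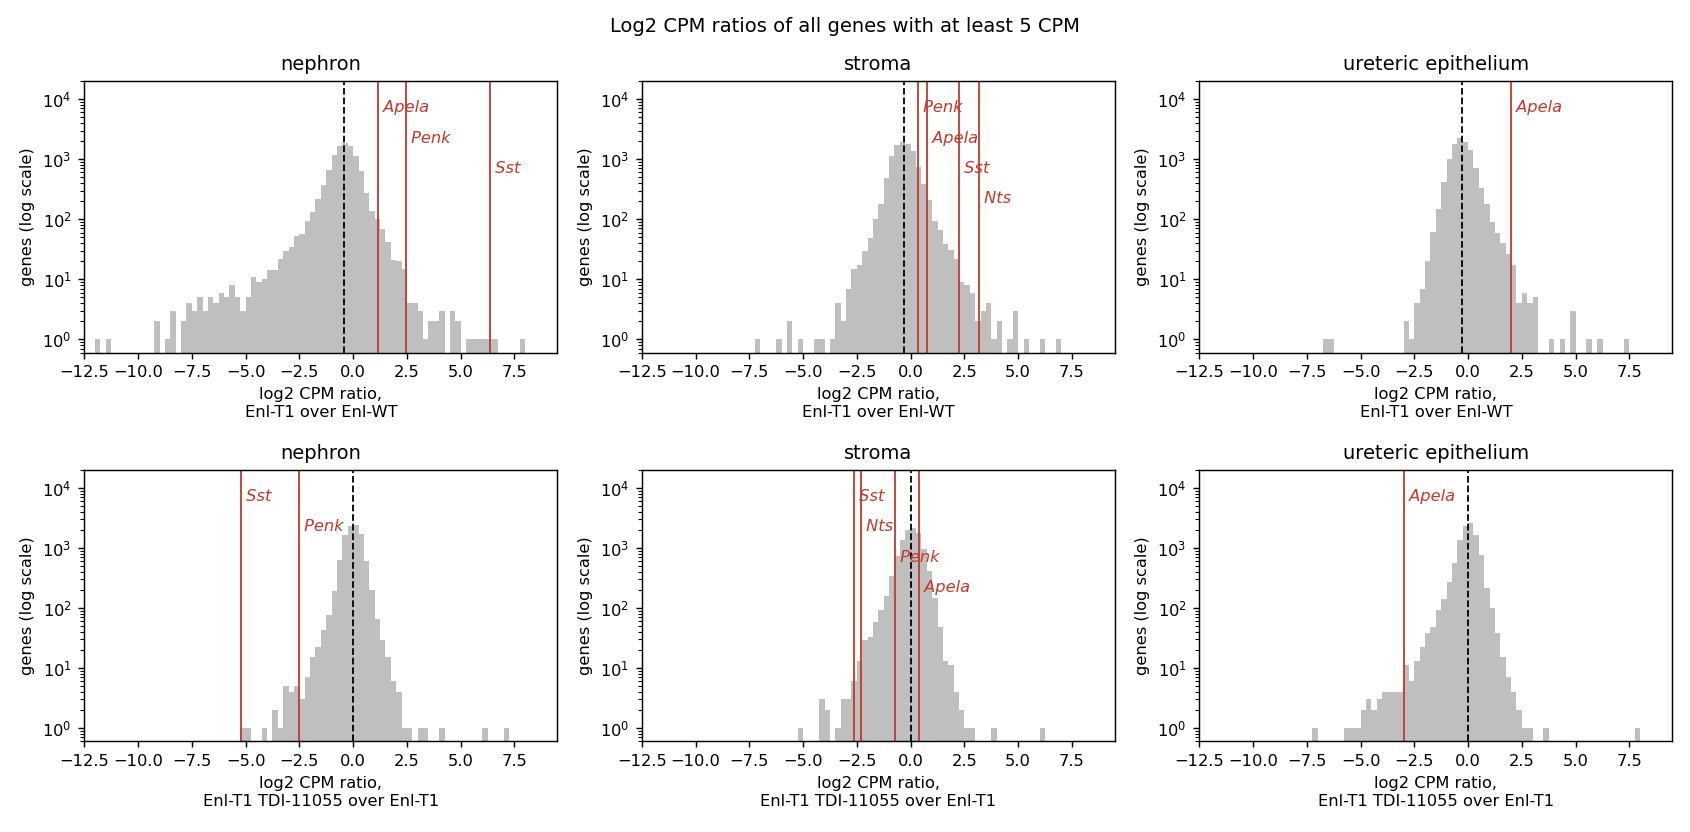
Number of genes (log scale) by log2 CPM ratio in bins of 0.25, for 3 lineages and for the ratio to Enl-WT of untreated Enl-T1 (top) and for treated over untreated Enl-T1 (bottom), among genes with a mean of at least 5 CPM. The dashed line is the median of all genes and the red lines are the members that passed the floor. *Sst* in the nephron is at the far edge of both rows, and passed only through its Enl-T1 level. *Penk* in the stroma is inside the bulk.

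The levels were also taken by sex, in cells that had *Xist* but nothing Y-linked and in cells of the reverse kind, since the share of the former was highest in Enl-T1. Enl-T1 nephron *Sst* was at 26.8 CPM (23.8 to 30.1) in the former and 38.7 CPM (31.2 to 47.4) in the latter. For the other 3 genes Enl-T1 was higher in the *Xist* cells, at 423 against 362 CPM for *Penk*, 516 against 289 CPM for *Nts* and 339 against 161 CPM for *Apela*, whereas in Enl-WT the values were 307 and 317 CPM, 63.4 and 60.4 CPM, and 71.2 and 83.3 CPM. Within either kind of cell Enl-T1 was the highest library for all 4 genes, but the log2 ratio of Enl-T1 to Enl-WT for *Apela* was 2.25 in *Xist* cells and 0.95 in the others, and that for *Nts* was 2.26 in the others against 3.19 in all cells. Cells of 1 kind come from different embryos than the other, so sex and embryo cannot be told apart.

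Genes of the same signalling systems were read from lists of receptors, related ligands, precursor processing, degradation and other hormones, which were written with earlier results of these data known. Of 12 receptors, 3 reached 5 CPM in any lineage. *Ntsr1*, the high-affinity neurotensin receptor, was in the stroma, at 11.98, 5.24 and 9.48 CPM, lower in Enl-T1 (0.437 times Enl-WT, 0.294 to 0.653) where *Nts* was high. *Sort1*, which encodes the neurotensin-binding sorting receptor sortilin, was at 62.7, 54.9 and 36.9 CPM in the ureteric epithelium. *Aplnr*, the receptor of ELABELA and apelin, was endothelial, at 145.5, 149.7 and 173.3 CPM. All 5 somatostatin receptors and the 3 opioid receptors were under 5 CPM in each lineage. Of 7 related ligands, *Pomc* and *Apln* reached 5 CPM, and *Apln*, the gene of apelin, was at 39.1, 41.8 and 26.3 CPM in endothelial cells.

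The enzymes that free peptides from precursors were mostly the general ones. Of 16 genes for processing and secretory granules, 8 reached 5 CPM (*Pcsk5*, *Pcsk6*, *Pcsk7*, *Furin*, *Cpe*, *Cpd*, *Pam* and *Scg5*), while *Pcsk1* and *Pcsk2*, the convertases of endocrine cells and neurons, and the granule genes *Chga*, *Chgb*, *Scg2*, *Scg3*, *Vgf* and *Pcsk1n* did not. None of the 6 or 7 genes of the list that could be compared in a lineage was 2-fold or more above Enl-WT in Enl-T1. That held in each of the 4 lineages, where 2.16% to 2.83% of all genes were. At least 2-fold lower were *Pcsk6* and *Pcsk7* in the nephron (17.3% of all genes), *Cpd* in the stroma (8.78%) and *Pcsk5* in endothelial cells (8.75%). In the ureteric epithelium 0 of the list were at least 2-fold lower (6.43% of all genes). *Pam*, which amidates peptide ends, was at 28.6, 43.9 and 20.4 CPM in the stroma, and was 0.465 times Enl-T1 in the treated stroma (0.357 to 0.597) and 0.458 times in the treated ureteric epithelium (0.384 to 0.546).

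Some peptide-degrading enzymes were lower in the Enl-T1 nephron. Of 10 genes 9 could be compared there, and 5 (*Mme*, *Ece1*, *Ace*, *Anpep* and *Dpp3*) were at least 2-fold lower than in Enl-WT, as were 17.3% of all genes. *Mme*, which encodes neprilysin, was at 93.5, 5.999 and 8.69 CPM, *Anpep* at 36.9, 3.35 and 5.95 CPM and *Ace* at 16.2, 0.209 and 0.421 CPM. *Mme*, *Anpep* and *Ace* are brush border enzymes of the proximal tubule, and the proximal tubule-like cluster had 270, 33 and 75 cells in the 3 libraries. The median log2 ratio of the list was -1.13, against -0.41 for all genes. None of the 8 genes compared in the stroma or of the 8 in the ureteric epithelium was past 2-fold. Of all genes there, 8.78% and 6.43% were at least 2-fold lower and 2.81% and 2.45% at least 2-fold higher. In endothelial cells *Dpp3* was at least 2-fold lower, 1 of 6 compared, as were 8.75% of all genes.

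Among 41 other peptide hormone genes, 13 reached 5 CPM and their directions were mixed. *Sct*, the gene of secretin, was 2-fold or more above Enl-WT in Enl-T1 in 3 lineages, where 2.45% to 2.83% of all genes were. It was at 69.0, 251.0 and 153.5 CPM in the ureteric epithelium, 21.03, 80.1 and 34.2 CPM in the stroma and 33.3, 66.8 and 62.4 CPM in the nephron. *Ren1*, the gene of renin, and *Vip* were lower, at 622, 37.9 and 11.8 CPM and at 53.8, 0.723 and 1.15 CPM in the stroma. *Npy* was highest in the treated stroma (1.22, 6.78 and 52.9 CPM), and so was *Grp* (0.245, 10.2 and 15.2 CPM). *Adm*, the gene of adrenomedullin, was highest in Enl-WT in the nephron, at 12.8, 1.81 and 3.21 CPM, and highest in Enl-T1 in the ureteric epithelium, at 25.7, 33.7 and 16.9 CPM.

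**Figure D5:**
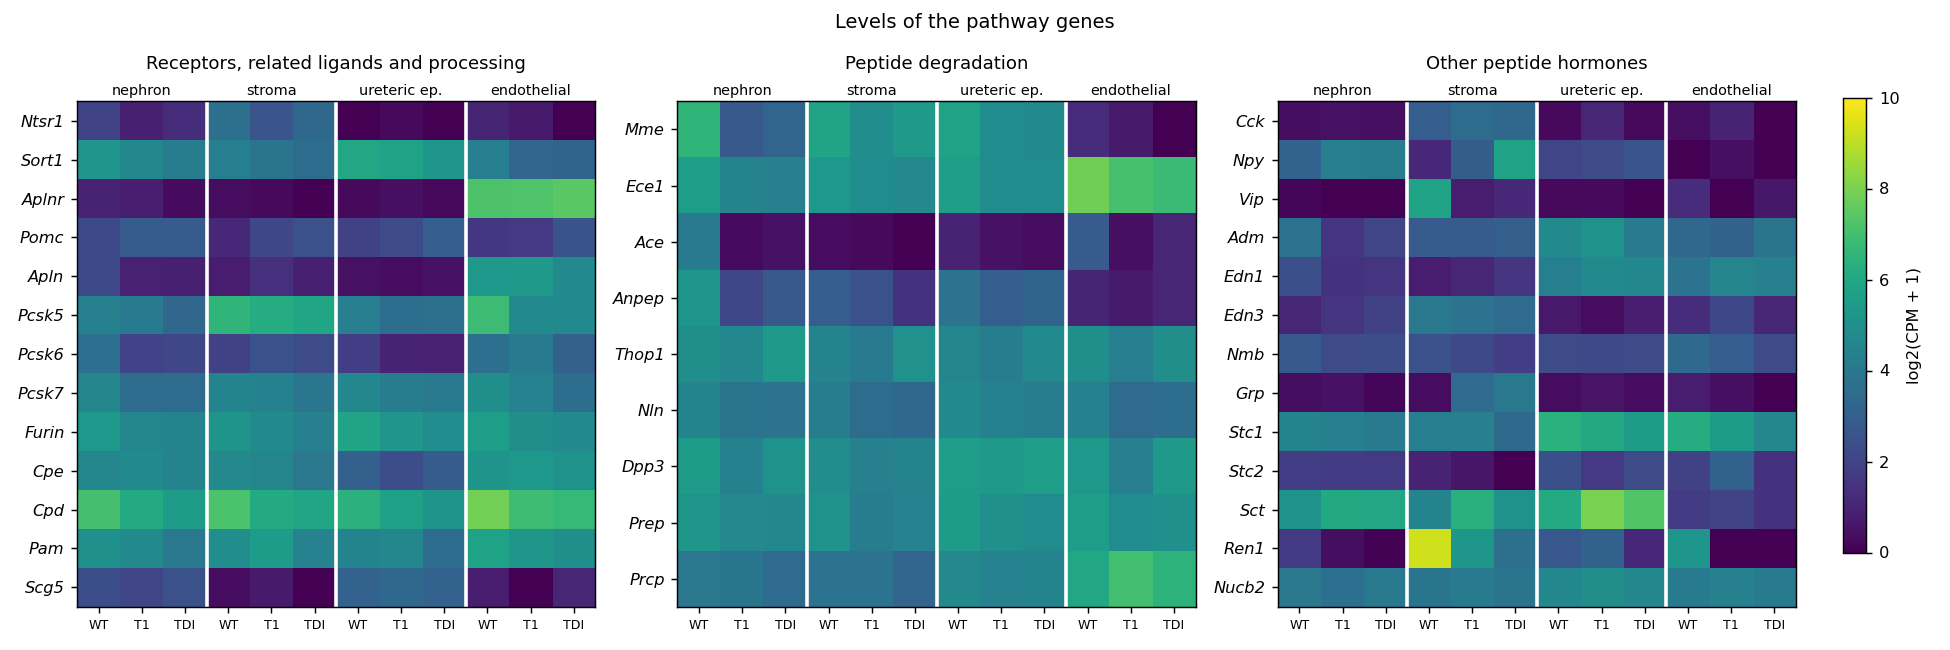
Level, as log2(CPM + 1), of the genes of the lists that reached 5 CPM, in 4 lineages (separated by white lines) and, within each, in the Enl-WT (WT), untreated (T1) and treated (TDI) Enl-T1 libraries. *Aplnr* is bright in endothelial cells only, *Mme* and *Anpep* are brightest in the Enl-WT nephron, and *Sct* is bright in the Enl-T1 ureteric epithelium, at 251.0 CPM.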

How the data were processed

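Single-cell RNA sequencing (10x Genomics) of embryonic day 15.5 mouse kidneys was analysed in 3 libraries. The deposited values were raw counts of UMIs per gene and barcode, which the authors made with Cell Ranger 6.1.2 on mm10, in matrices of called cells without a later filter. Barcodes with 1000 to 6000 genes and at most 10% mitochondrial UMIs were kept, as in the study's methods. Cells were integrated with anchors and clustered in Seurat 5.3.0 (R 4.3.3), without the members, the lists, *Hox* genes, and genes of mitochondria, ribosomes, haemoglobin and the sex chromosomes, and each of the nephron, stroma and ureteric epithelium was clustered again. Cluster names ending in "-like" were rebuilt from marker genes, since the matrices hold no cell types, and can differ from the study's. A cluster was named where its 10 leading genes held a marker of the type and no more of other lineages, at least 3 of the type's markers were each in 10% of its cells, and these markers were on average above the rest of the lineage. Scrublet (scanpy 1.11.5) marked 2, 1 and 0 barcodes, which was judged not to have worked, so doublets were left in, and leaving out the 413, 346 and 333 highest scores was an alternative.

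Counts were summed per lineage or cluster and library and scaled to CPM, with exact Poisson intervals. Ratios have exact intervals from the split of the counts, and shares have Clopper-Pearson intervals (scipy 1.17.1). Depths were 5090 to 16932 UMIs per cell, so shares were taken after thinning each cell to 2000 UMIs, which left out 1 to 36 cells of a leading lineage. The limit beside a count of 0 is the upper end of its interval, and an at-least fold uses a floor of 3 counts. For ranks and 2-fold counts, 0.5 counts were added. The study's own test over single cells was not used, because cells are not replicates. The calculation was tested on simulated data. The members and lists were chosen with earlier results of these data known. Genes named are the members, list genes of at least 5 CPM in some lineage, the 5 genes most like each member, the 5 of highest ratio in cells with at least 2 UMIs, and marker or cluster-leading genes. A few genes that fall under these rules are not reported here. Alternatives were the total, size factors, cell filters, doublets, lineage assignment, thinning depth and, chosen after seeing the data, the top cell, the mix of clusters and sex.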

Additional observations from a re-analysis of the deposited data

Results flagged for a closer look

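*Apela* differed in direction between lineages for treated over untreated Enl-T1. The log2 ratio was 0.40 in the stroma (0.05 to 0.73), but -1.87 in the nephron (-2.43 to -1.33), -3.00 in the ureteric epithelium (-3.11 to -2.88) and -3.63 in endothelial cells (-9.0 to -1.0, on 1 and 22 UMIs). With 1 library per group this difference was not tested.

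Members were also counted in barcodes outside the limits on genes and mitochondrial share, which no comparison used, and stood above the Enl-WT level there in several cases. Among barcodes with over 6000 genes, *Penk* was at 26.8 CPM in Enl-T1 and 11.5 CPM in treated Enl-T1 against 4.62 CPM in Enl-WT, *Nts* at 9.61 CPM in Enl-T1 against 1.16 CPM, and *Apela* at 253.3 CPM in Enl-T1 against 34.1 CPM. Among barcodes with a mitochondrial share above 10%, Enl-T1 had *Sst* at 13.8 CPM (60 UMIs in 5 barcodes, 47 of them in 1) against 0 in Enl-WT, *Penk* at 28.0 against 15.4 CPM, *Nts* at 44.8 against 0.768 CPM and *Apela* at 223.3 against 41.5 CPM. Among barcodes with under 1000 genes, Enl-T1 had *Nts* at 81.5 against 2.34 CPM and *Apela* at 68.6 against 12.9 CPM. In treated Enl-T1, *Sst* had 20 UMIs in barcodes with over 6000 genes (0.745 CPM, against 1.52 CPM in Enl-T1). It had 16 UMIs in those with under 1000 genes (3.37 CPM, against 5.36 CPM in Enl-T1), 13 of them in 1 barcode. The kept cells of that library had 23. Cell types were not assigned to barcodes outside the limits.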

How the results depend on the processing

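Of 93 recomputed log2 ratios in the leading lineages 57 stayed within their counting interval, 35 moved and 1 turned; 3 gave no value because of a count of 0 (*Sst*, Enl-T1 over Enl-WT, under the stricter filter and in either sex class). The cause of the moves was not tested. *Sst*, Enl-T1 over Enl-WT, stayed within its interval in the other alternatives. Weighting clusters as in Enl-WT (chosen after seeing the data, like sex and the top cell) turned *Penk*, Enl-T1 over Enl-WT, to -0.02. It gave 2.57 for *Nts* and 1.20 for *Apela*. For treated over untreated Enl-T1 it gave -4.49 (*Sst*), -0.50 (*Penk*), -1.47 (*Nts*) and -1.64 (*Apela*). Against 0.36, *Penk* over Enl-WT was 0.54 with a total free of technical genes, 0.71 with median-of-ratios factors, 0.22 as a mean over cells and 0.62 under the stricter filter (1500 to 6000 genes, 5% mitochondrial), and 0.46 and 0.19 in *Xist* and Y cells. *Penk* over Enl-T1 (-0.74) was -0.95 as a mean over cells, -0.98 under the stricter filter, and -0.38 and -0.87 by sex. *Sst* over Enl-T1 (-5.28) was -6.44 as a mean over cells and -4.37 with lineages by marker level. *Nts* was 3.54 over Enl-WT with median-of-ratios factors and 2.26 in Y cells, and over Enl-T1 -2.59 without the upper gene limit, -2.51 under the stricter filter, -2.56 without the top cell and -1.83 in Y cells. *Apela* over Enl-WT (1.98) was 2.12 with the technical-gene-free total and without the upper limit alike, 2.31 with median-of-ratios factors, 3.72 under the stricter filter, 2.10 by marker level, 2.25 in *Xist* cells and 0.95 in Y cells. *Apela* over Enl-T1 was -2.79 as a mean over cells, -2.77 without the upper limit, -2.70 under the stricter filter and -2.67 in Y cells.

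In the other lineages 142 of 158 ratios stayed, 15 moved and 1 turned: endothelial *Penk*, Enl-T1 over Enl-WT, went to -0.61 without the highest doublet scores. Of the other-lineage ratios of Enl-T1 to Enl-WT, 7 had an interval wholly above 0 on the log2 scale, and 2 did under the stricter filter. Differences of shares with all UMIs of each cell were 2.75 points (*Sst*), 21.2 (*Penk*), 26.8 (*Nts*) and 30.1 (*Apela*) for Enl-T1 minus Enl-WT, and -23.8 (*Nts*) and -32.7 (*Apela*) for treated minus untreated. At 4000 UMIs they were 22.3 (*Penk*), 27.4 (*Nts*) and -27.7 (*Apela*). Without a floor on low counts the genes at least 2-fold higher in Enl-T1 came to 11.6%, 15.6% and 11.4% in nephron, stroma and ureteric epithelium, and those at least 2-fold lower after treatment to 14.0%, 24.5% and 17.1%. With median-of-ratios factors the former were 5.36%, 6.04% and 4.85%. Lineages by marker level matched those used in 95.4% of 12131 cells. No paired analysis was possible because each group is 1 library. Depth limits the *Sst* ratio to Enl-WT, which rests on 4 nephron UMIs.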
